A study of Mus musculus with 21 samples.

Results

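The hormone and factor genes of the paraventricular nucleus and the magnocellular neurons were chosen by name as 9 gene symbols, Avp, Oxt, Trh, Crh, Sim1, Otp, Adcyap1, Nucb2 and Bdnf, out of 25239 gene rows in each table. All 9 were present in the hypothalamus table and in the choroid plexus table. The name of the group describes where these genes are best known, and whole hypothalamus libraries do not show which nucleus a read came from. In bulk samples like these, fewer cells of a type and less RNA per cell cannot be told apart.

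Poly(A) RNA was sequenced from hypothalamus and from choroid plexus, the tissue of the brain ventricles that makes cerebrospinal fluid, of wild-type (WT) C57BL/6J mice. In 1 set of mice the choroid plexus overexpressed the insulin gene Ins2. The other set is listed as untreated, although its hypothalamus columns are named with GFP, so whether those controls received GFP cannot be settled here. Hypothalamus gave 5 Ins2 libraries (replicates 1 to 5) and 5 control libraries (replicates 1 to 4 and 6), and choroid plexus gave 6 Ins2 and 5 control libraries. The labels used here do not give the way Ins2 was introduced, the age of the mice or whether replicates are separate animals, so p-values measure only the spread between these samples, which may be technical.

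Avp encodes vasopressin, the antidiuretic hormone, and Oxt encodes oxytocin, the hormone of milk ejection and labour. Magnocellular neurons of the paraventricular and supraoptic nuclei make both and release them into the blood from the posterior pituitary, and vasopressin is also made in the suprachiasmatic nucleus, the seat of the daily clock. Smaller paraventricular neurons make thyrotropin-releasing hormone (Trh) and corticotropin-releasing hormone (Crh), which drive the thyroid and stress axes, and the transcription factors Sim1 and Otp are needed for these neurons to form. Adcyap1 encodes PACAP, Nucb2 encodes nucleobindin-2, the precursor of nesfatin-1, and Bdnf encodes a neurotrophin. All 3 have been tied to reduced feeding and are made in several hypothalamic nuclei.

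Avp and Oxt are neighbours on mouse chromosome 2 (GRCm38, GENCODE M21). Avp (ENSMUSG00000037727.6) lies on the minus strand at chr2:130580620-130582554, and Oxt (ENSMUSG00000027301.7) lies on the plus strand at chr2:130576173-130577054. Their 3′ ends face each other, with 3565 bases between them. Their hormones differ in 2 of 9 residues, and the 27 bases that encode each hormone, all in exon 1, are shown because they are the part that tells the hormones apart. Capitals mark the 5 bases that differ between the genes. The Avp bases are at chr2:130582446-130582472 on the minus strand and the Oxt bases at chr2:130576267-130576293 on the plus strand.
Avp: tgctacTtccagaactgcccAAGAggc
Oxt: tgctacAtccagaactgcccCCTGggc

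The coding sequences of both genes matched at 82.5% of 372 aligned bases. One stretch of 127 bases was identical in the 577-base Avp transcript and the 537-base Oxt transcript, of which it is 23.6%. Its last 125 bases lie in exon 2, at chr2:130581133-130581257 in Avp and chr2:130576591-130576715 in Oxt, the exon that encodes the conserved core of neurophysin, the carrier protein of each hormone. It is shown because a read that falls wholly within it cannot be assigned to one of the genes, so part of either gene's count depends on how the authors' counting treated such reads.
Avp and Oxt: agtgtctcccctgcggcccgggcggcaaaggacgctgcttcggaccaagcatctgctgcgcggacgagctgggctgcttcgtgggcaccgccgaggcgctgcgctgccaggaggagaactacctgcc

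Of the other 7 genes, Bdnf is also on chromosome 2, and the remaining 6 are on other chromosomes. Trh is at chr6:92242061-92244650 and Crh at chr3:19693401-19695396, both on the minus strand. The plus strand holds Sim1 at chr10:50894754-50989152, Otp at chr13:94875602-94885130, Adcyap1 at chr17:93199017-93206537, Nucb2 at chr7:116504369-116540584 and Bdnf at chr2:109674700-109727007.

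Avp was the most abundant of the 9 genes in hypothalamus, and the order of levels was the same in 10 of 10 libraries but for Bdnf and Crh. On a scale of reads per kb of exon per M reads (M, 1e+06), the lowest, median and highest Avp levels over the 10 libraries were 401, 507 and 727. For Oxt these levels were 210, 255 and 427, so its range overlapped that of Avp, although Avp was higher in 10 of 10 libraries. Trh followed at 51.9, 61.2 and 75.0, then Adcyap1 at 34.4, 38.1 and 42.2. Each of these ranges lay apart from its neighbours. Otp levels ran from 22.6 to 33.8 and Nucb2 levels from 9.14 to 14.4. Bdnf (3.38 to 4.55) and Crh (2.02 to 7.73) overlapped, and Bdnf was the higher in 5 of 10 libraries. Sim1 was lowest, from 1.03 to 1.76, with a range apart from that of Crh.

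The libraries held 27.4 to 62.1 M reads in hypothalamus and 25.95 to 36.3 M in choroid plexus, and 3 reads, the limit that a count of 0 allows for counting error alone, amount to 0.0483 to 0.110 and 0.0827 to 0.116 reads per M. In the limma test with Benjamini-Hochberg adjustment over all 16363 hypothalamus genes tested, 0 genes (0%) passed an adjusted p of 0.05, 1624 (9.92%) had an unadjusted p under 0.05 and 245 (1.5%) had group ranges that did not overlap. On the same genes, edgeR called 0 with 1630 at an unadjusted p under 0.05, and DESeq2 called 41. DESeq2 gave no adjusted p to some genes, Crh, Sim1, Nucb2 and Bdnf among them, so its adjustment covered fewer genes. Markers of the thalamus, which borders the hypothalamus, summed to 3574 to 4194 size-factor-scaled reads in controls and 3913 to 5016 in Ins2 libraries, with 6 of 6 markers tested.

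Of the 9 genes, 0 passed the adjusted threshold in hypothalamus, 1 (Trh) had an unadjusted p under 0.05 against 9.92% of all genes, and 0 had group ranges that lay apart against 1.5% of all genes. The fitted log2 fold change, Ins2 minus control, was below 0 for 7 genes and above 0 for 2, with a median of -0.05 beside 0.001 for all genes tested. With the thalamus list as a covariate the sign turned for 4 genes, with log2 differences of 0.16 for Avp, 0.06 for Oxt, 0.05 for Otp and -0.05 for Bdnf, and none of the 9 passed. Values below are read counts divided by the authors' size factors, and folds are on the log2(value + 1) scale with 95% intervals.

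Avp was at 10572, 8924, 13169, 8113 and 14893 scaled reads in control replicates 1, 2, 3, 4 and 6, and at 12630, 9298, 10144.5, 10148 and 12262 in Ins2 replicates 1 to 5. The Ins2 libraries all lay within the control range. The means were 11134 ± 2855 and 10897 ± 1462 (SD, n = 5 each), a fold of 0.997 (0.837 to 1.19; limma adjusted p = 0.994, exact permutation p = 0.984). For vasopressin the difference was smaller than the spread between libraries, and its sign changed with the library left out, from a log2 difference of -0.11 without control replicate 4 to 0.11 without control replicate 6.

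Oxt was at 4932, 4446, 8060.3, 3957 and 7479.6 scaled reads in control replicates 1, 2, 3, 4 and 6 and at 5483, 4368, 4763, 4138 and 5784 in Ins2 libraries. Control replicates 3 and 6 stood above every other library, and the other 3 controls lay among or below the Ins2 libraries. Control and Ins2 means were 5775 ± 1865 and 4907 ± 708, a fold of 0.878 (0.711 to 1.08; limma adjusted p = 0.693, exact permutation p = 0.413). Without control replicate 4 the log2 difference was -0.31 (unadjusted limma p of 0.0179, adjusted 0.503).

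Trh was at 2690.2, 3192, 3327, 3093 and 3683 scaled reads in controls and at 2545, 2648, 2619, 3365 and 2868 in Ins2 libraries. Ins2 replicates 1, 2 and 3 lay below every control, while Ins2 replicate 4 lay above 4 of the 5 controls. The means were 3197 ± 361 and 2809 ± 333, a fold of 0.879 (0.786 to 0.983) with an unadjusted limma p of 0.0255, an adjusted p of 0.443 and an exact permutation p of 0.111. The call on Trh thus failed the adjustment, and its log2 difference with the thalamus covariate was -0.18 at an unadjusted limma p of 0.0761.

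Crh, the peptide that drives the stress axis, was the most variable of the 9 genes. It was at 144, 165, 194, 162 and 179 scaled reads in controls and at 228, 364, 207, 95.4 and 168 in Ins2 libraries. The highest and the lowest library were both in the Ins2 group. Group means were 169 ± 18.8 and 212 ± 98.7, a fold of 1.15 (0.823 to 1.62; limma adjusted p = 0.790, exact permutation p = 0.540). For Crh the log2 difference was 0.21, and it was -0.02 without Ins2 replicate 2 and 0.46 without Ins2 replicate 4.

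**Figure D1:**
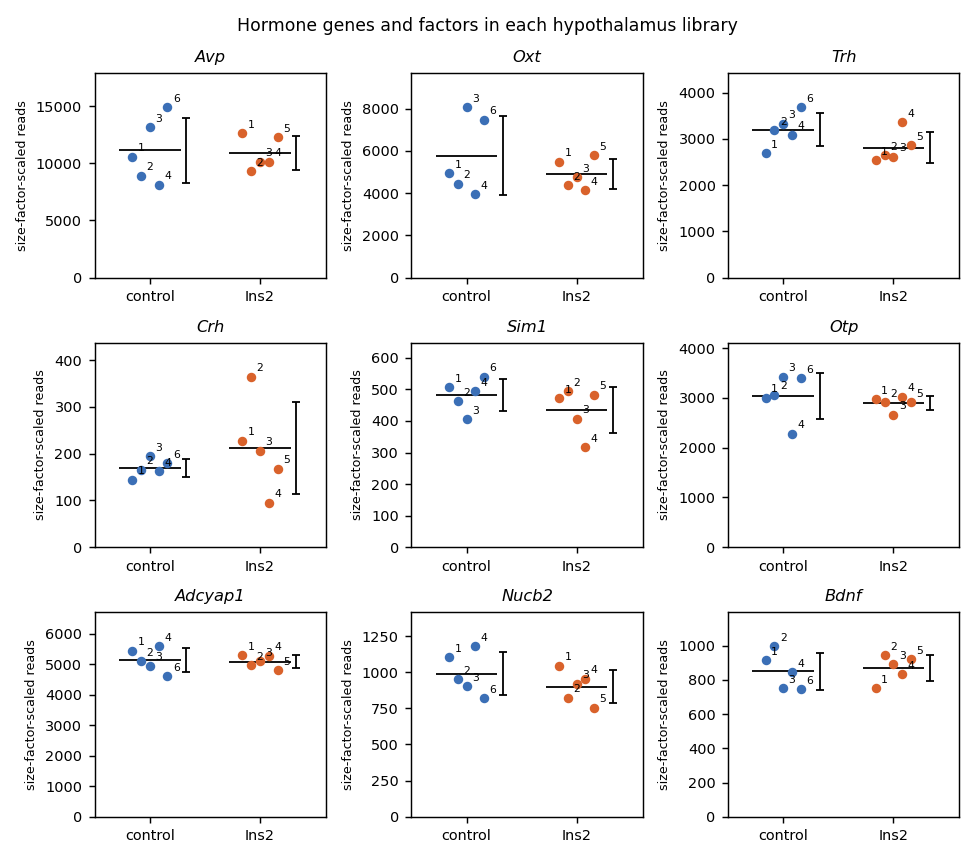
Size-factor-scaled reads (vertical axes, from 0) of the 9 genes in each hypothalamus library, with points for libraries labelled by replicate number, horizontal lines for group means and bars for 1 SD (n = 5 each). The groups overlap for every gene, and the widest spread relative to the mean is that of Crh, from 95.4 to 364.

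The factors that form these neurons showed narrower ranges. Sim1 was at 506, 463, 405, 494 and 539.6 scaled reads in controls and at 472, 494, 407, 317 and 483 in Ins2 libraries, where replicate 4 was the lowest of all. Means of 482 ± 50.7 and 435 ± 73.7 gave a fold of 0.896 (0.756 to 1.06; limma adjusted p = 0.673, exact permutation p = 0.294). Otp was at 3007, 3062, 3423, 2279.8 and 3395 scaled reads in controls and between 2662 and 3022 in Ins2 libraries, so all Ins2 values lay inside the control range. The Otp fold was 0.964 (0.857 to 1.08; limma adjusted p = 0.854, exact permutation p = 0.627). Its log2 difference of -0.05 was -0.15 without control replicate 4, its lowest library (unadjusted limma p of 0.00752, adjusted 0.456).

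Adcyap1 was the steadiest of the 9 genes. It was at 5451, 5107, 4954, 5588 and 4613 scaled reads in controls and at 5299, 4972, 5096, 5281 and 4810.4 in Ins2 libraries, and its highest value was 1.21 times its lowest. The fold was 0.992 (0.920 to 1.07; limma adjusted p = 0.958, exact permutation p = 0.849), and the log2 difference was above 0 in 5 of 21 alternatives. Nucb2 was at 1104, 950.1, 902, 1179 and 819 scaled reads in controls and at 1045, 824, 921, 954 and 753 in Ins2 libraries. The groups overlapped over most of their range, and the Nucb2 fold was 0.910 (0.789 to 1.05; limma adjusted p = 0.669, exact permutation p = 0.333).

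Bdnf was at 915, 996, 752, 845 and 746 scaled reads in controls and at 752, 944, 893, 835 and 919 in Ins2 libraries. Its fold was 1.02 (0.902 to 1.16; limma adjusted p = 0.922, exact permutation p = 0.714), and the log2 difference was below 0 in 4 of 21 alternatives. Of the exon bases of Bdnf, 14.4% overlap Gm45346 on the opposite strand, and since the strand setting of the authors' counting is not given in the sources used here, its counts are read as uncertain. The other 8 genes share no exon bases with another annotated gene.

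**Figure D2:**
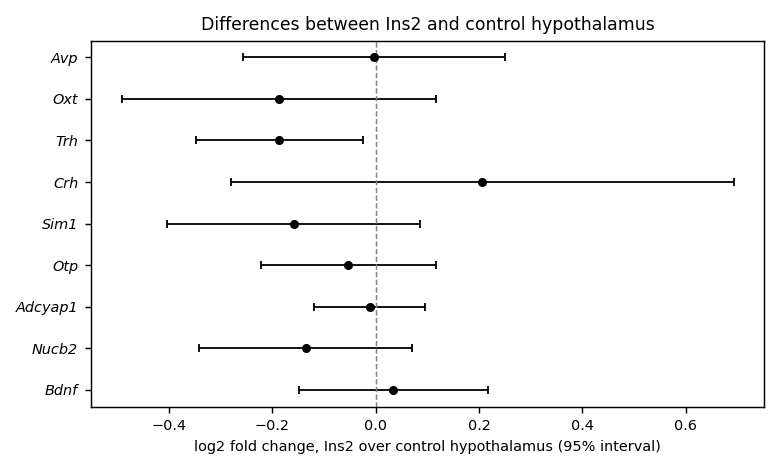
Log2 fold change of each gene in hypothalamus, Ins2 minus control (horizontal axis), as points with 95% intervals from the limma fit (n = 5 libraries in each group). The interval of Trh alone lies to the left of 0, and its adjusted p is 0.443.

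The genes that receive and process these hormones were read from lists chosen with the 9 genes. Of 13 receptor genes, 12 were tested, 0 passed the adjusted limma threshold, 7 were above 0 and 5 below, with a median log2 difference of 0.005 beside 0.001 for all genes. The most abundant were Ntrk2, the receptor of the Bdnf product, at 27614 ± 658 scaled reads in controls and 28352 ± 387 in Ins2 libraries, and Adcyap1r1, the PACAP receptor, at 14221 ± 987 and 15312 ± 477. Adcyap1r1 had a log2 difference of 0.11 (0.01 to 0.20) with an adjusted limma p of 0.448. Crhr1 and Trhr, the receptors of the releasing hormones, had log2 differences of 0.004 and 0.006. The receptors Oxtr and Avpr1a fell outside the naming rule by level and are given because they bind the hormones of the main pair. Oxtr was at 335 ± 63.6 in controls and 389.8 ± 33.6 scaled reads in Ins2 libraries, a log2 difference of 0.24 (limma adjusted p = 0.537), and Avpr1a was at 254 ± 51.6 and 235 ± 32.5.

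Of 13 genes for processing, binding, sorting and degrading peptides, or for regulating these steps, all 13 were tested and 0 passed. Of these, 8 were above 0 (61.5%) and 5 below, against 50.3% above 0 of all genes tested. Cpe, which trims basic residues from peptides, was at 78317 ± 2705 scaled reads in controls and 78667 ± 2523 in Ins2 libraries, and Pcsk2, a prohormone convertase, at 8716 ± 336 and 8984 ± 359. Among 8 related ligands 4 were tested and 0 passed. The most abundant was Nucb1, the paralogue of Nucb2, with a log2 difference of 0.04 (limma adjusted p = 0.782).

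Of 5 further transcription factors of paraventricular development, 5 were tested and 0 passed. There 3 were above 0 (60%) and 2 below, against 50.3% above 0 of all genes tested. Pou3f3 was at 2278 ± 287 scaled reads in controls and 2818 ± 132 in Ins2 libraries, a log2 difference of 0.32 (0.17 to 0.46) with an adjusted limma p of 0.309, equal to the smallest adjusted p of all genes tested. Arnt2, the protein partner of Sim1, was at 10121 ± 448 and 11057 ± 338, a log2 difference of 0.13 (0.04 to 0.21) with an adjusted limma p of 0.350. Neither passed, and both lay above control while Sim1 itself was at a fold of 0.896. The log2 difference of Pou3f2 was 0.06 and that of Fezf2 was -0.01. Of 12 genes known to be expressed in magnocellular neurons beside the hormones, 12 were tested and 0 passed. Of these, 3 were above 0 (25%) and 9 below, against 50.3% above 0 of all genes tested. The median log2 difference of the 12 was -0.02. The most abundant were the granule proteins Scg2 (38049 ± 2840 and 36828 ± 1453 scaled reads) and Vgf (16611 ± 2145 and 18160 ± 1389).

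The 9 genes differed in how far they varied between libraries, whatever the group. The coefficient of variation over the 10 libraries was 37.1% for Crh, 26.3% for Oxt and 19.4% for Avp, against a median of 9.67% for all genes tested. Among genes of a similar level these values lay at percentiles 98.7, 99.9 and 99.4. Trh (12.9%, percentile 97.2), Otp (11.1%, percentile 94.3) and Nucb2 (14.1%, percentile 94.0) also lay high, while Sim1 (14.1%) lay at percentile 78.9, Bdnf (10.3%) at 70.9 and Adcyap1 (5.79%) at 53.4. The highest value was 3.82 times the lowest for Crh, 2.04 times for Oxt and 1.84 times for Avp.

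Avp and Oxt varied together. Their Pearson r over the 10 libraries was 0.91 (permutation p = 1.1e-04, adjusted over 36 pairs p = 0.00396), and Spearman's rho was 0.89 (permutation p = 0.00118, adjusted p = 0.0212). Without control replicates 4 and 6, the libraries farthest from the Avp median, r was 0.85, and with the group means removed it was 0.94. Out of 16362 other genes, Oxt held rank 2 in likeness to Avp and Avp held rank 6 in likeness to Oxt. The genes most like Avp were Mcm3ap (r = 0.91), Oxt and Six3os1 (r = 0.91), and those most like Oxt were Kcnh3 (0.93), Nosip (0.92) and Six3os1 (0.92). These ranks describe the 10 libraries and carry no test.

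The ratio of Avp reads to Oxt reads lay between 1.63 and 2.45 in the 10 hypothalamus libraries. It ran from 1.63 to 2.14 in controls (mean 1.97 ± 0.195) and from 2.12 to 2.45 in Ins2 libraries (mean 2.23 ± 0.148). The lowest ratio was that of control replicate 3, where Oxt was highest, and control replicate 1 was the only control above any Ins2 library. The ratio was chosen after the values were seen. The log2 difference of 0.18 had an exact permutation p of 0.0317, unadjusted, which was 0.0794 without control replicate 3, 0.0635 without Ins2 replicate 1 and 0.0714 without Ins2 replicate 4. The ratio itself was not tested with the thalamus covariate, where Avp and Oxt had log2 differences of 0.16 and 0.06. Nor was it tested with each library's trend on GC content removed, where these were -0.14 and -0.27.

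The promoters of this pair are shown because their transcripts varied together. Windows of 250 bases before the RefSeq start (GRCm38.p6) were searched on both strands for CACGTG, the E-box bound by clock factors, for TGACC, a half-site of nuclear hormone receptors, for TGACGTCA, the cAMP response element, and for TATAA. Capitals mark matches, and no match overlapped another. Avp, at chr2:130582589-130582838 on the minus strand, held CACGTG with its first base 139 bases before the start, a motif found in 6.02% of 32817 windows of the same length. Oxt, at chr2:130575919-130576168 on the plus strand, held TGACC or its reverse complement at 184, 166, 160, 102 and 83 bases before the start, and 35.2% of windows held at least 1. TGACGTCA (1.55% of windows) and TATAA (22.8%) matched in neither. The motifs that matched in one window were not found in the other, and a match is a description of letters only.
Avp: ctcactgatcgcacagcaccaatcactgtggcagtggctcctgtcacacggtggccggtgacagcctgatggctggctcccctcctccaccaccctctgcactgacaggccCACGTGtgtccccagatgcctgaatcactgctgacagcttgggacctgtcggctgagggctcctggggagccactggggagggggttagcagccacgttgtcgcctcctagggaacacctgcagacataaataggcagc
Oxt: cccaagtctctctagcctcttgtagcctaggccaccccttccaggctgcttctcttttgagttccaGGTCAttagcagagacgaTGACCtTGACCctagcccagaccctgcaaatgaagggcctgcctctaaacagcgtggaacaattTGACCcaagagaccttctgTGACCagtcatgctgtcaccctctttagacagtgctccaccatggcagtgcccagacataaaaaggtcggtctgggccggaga

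Adcyap1 and Nucb2 were the other pair that passed adjustment over the 36 pairs. Their r was 0.92 (permutation p = 2.3e-04, adjusted p = 0.00414) and rho was 0.98 (permutation p = 4.0e-05, adjusted p = 0.00144). Without control replicates 4 and 6 r was 0.94, and with the group means removed it was 0.96. Out of 16362 other genes, Nucb2 held rank 4 in likeness to Adcyap1 and Adcyap1 held rank 6 in likeness to Nucb2. The genes most like Adcyap1 were Prps1 (r = 0.94), Eif2s2 (0.93) and Rgs7 (0.93), and those most like Nucb2 were Rnps1 (r = 0.96), Ppa2 (0.96) and Mtrf1 (0.94). The spans differ: Nucb2 ran from 753 to 1179 scaled reads, and Adcyap1 from 4613 to 5588.

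**Figure D3:**
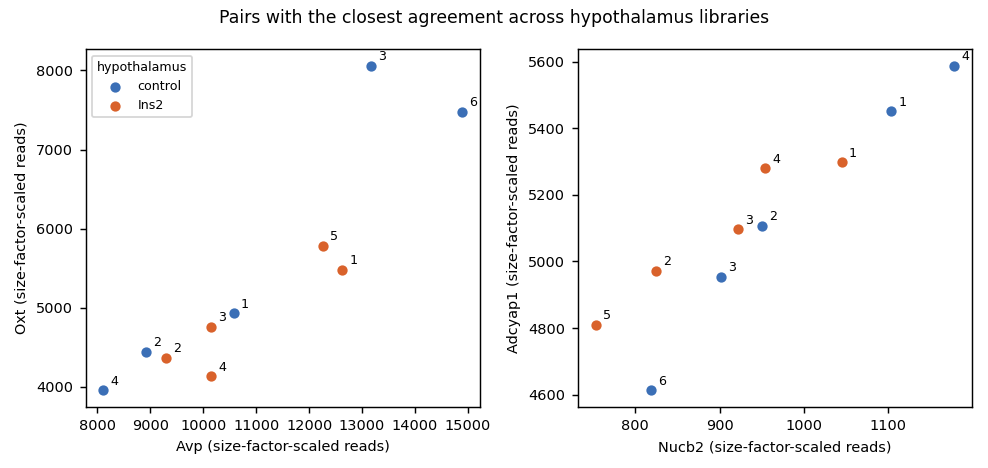
Size-factor-scaled reads of Oxt against Avp (left) and of Adcyap1 against Nucb2 (right) in the 10 hypothalamus libraries, numbered by replicate and coloured by group; the axes do not start at 0. Both pairs rise together, with r of 0.91 and 0.92, and the groups are mixed along each line.

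Of the 36 pairs 9 had an unadjusted permutation p under 0.05 and 2 passed adjustment. Among those that did not pass, Otp had r of 0.73 with Avp and 0.73 with Oxt (adjusted permutation p = 0.147 each). Without the 2 libraries farthest from the Avp median, control replicates 4 and 6, the former was 0.40. Without control replicates 3 and 6, farthest from the Oxt median, the latter was 0.41. The size of r in each pair thus depends on those libraries. Spearman's rho over all libraries was 0.56 and 0.52 (adjusted permutation p = 0.482 each). Bdnf had r of -0.69 with Avp and Adcyap1 had r of -0.67 with Oxt (adjusted permutation p = 0.194 each). Leaving out the same libraries for Avp and for Oxt gave -0.79 and -0.47. Adcyap1 with Avp (r = -0.65) and Bdnf with Oxt (r = -0.64) were at -0.17 and -0.14 without them. Adcyap1 had r of -0.63 with Otp, and -0.39 without control replicates 3 and 4. Crh, the other stress-linked peptide beside Avp, had r of 0.03 with Avp and -0.49 with Trh (permutation p = 0.150 for the latter, adjusted 0.464). The factor Sim1 had r of 0.13 with Avp and 0.20 with Oxt.

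The genes most like each of the others came from outside the group of 9. They were Rhoc (r = 0.89), Etohd2 (0.89) and Ints9 (0.88) for Trh, and Cilp2 (r = 0.90), Lyl1 (0.89) and Gm15631 (0.89) for Crh. For the factors they were 2610035D17Rik (r = 0.96), Parp8 (0.90) and Ak3 (0.89) for Sim1, and Zic5 (r = 0.94), Gpr161 (0.94) and Prpf8 (0.93) for Otp. For Bdnf they were Homer2 (r = 0.92), Znfx1 (0.91) and AI593442 (0.88). Only Avp had another of the 9 genes among its 3 most alike, namely Oxt.

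The GC content of the transcripts differed between the pairs. Avp (65.7% GC) and Oxt (60.5%) lay at percentiles 98.7 and 95.3 of the tested genes, while Adcyap1 (42.8%) and Nucb2 (41.8%) lay at percentiles 14.8 and 11.1. The slope of gene values on GC content differed between libraries, from -0.130 log2 units per 10% GC in control replicate 4 to 0.0626 in Ins2 replicate 3. The slope means were -0.0314 in controls and 0.0314 in Ins2 libraries (exact permutation p = 0.119). With each library's GC trend removed, a step added after the data were seen, Avp and Oxt had r of 0.88 (permutation p = 5.2e-04, adjusted p = 0.0187), and Adcyap1 and Nucb2 had r of 0.80 (permutation p = 0.00483, adjusted p = 0.0869), which no longer passed. None of the 9 genes had a relation to the slope that passed adjustment over the 9 (smallest adjusted permutation p = 0.272, for Nucb2 at r = -0.64).

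**Figure D4:**
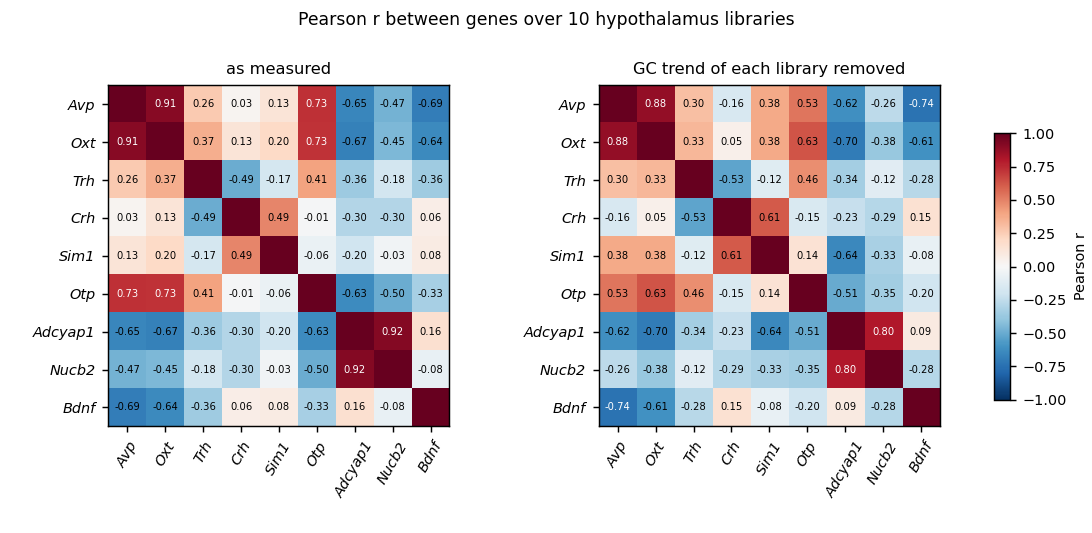
Pearson r of log2(value + 1) for every pair of the 9 genes over 10 hypothalamus libraries, as measured (left) and with each library's GC trend removed (right); the colour scale runs from -1 to 1. Avp with Oxt stays near 0.9 in both panels, and Adcyap1 with Nucb2 goes from 0.92 to 0.80.

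How far each dissection reached was read from 16 lists of region and cell type markers. Of 144 relations between a gene and a list, 7 had an unadjusted permutation p under 0.05 and 0 passed adjustment (smallest adjusted p = 0.830). The anterior and preoptic list, high in control replicate 3 and low in control replicate 4, had r of 0.81 with Otp, 0.71 with Oxt and 0.66 with Avp. Without those libraries r was 0.11, 0.25 and 0.40, so the size of r in these 3 relations depends on those samples. The other 4 were Avp with oligodendrocyte markers (r = -0.73), Sim1 with the lateral list (0.63), Nucb2 with the ventromedial list (0.66) and Bdnf with pituitary markers (-0.65). Without the 2 libraries farthest from each list's median these were -0.52, 0.83, 0.59 and -0.48. The thalamus list had its largest r with Oxt, at -0.61 (permutation p = 0.0652, adjusted 0.830). The suprachiasmatic list was lowest in control replicate 2, where Vip, a clock-nucleus peptide, was at 65.0 scaled reads against 384 to 768 elsewhere, and Nms was at 10.3 against 22.8 to 78.2. Avp in that library was 8924, lower than in every other library but control replicate 4 at 8113, and Oxt was 4446. The suprachiasmatic list had r of 0.49 with Avp (permutation p = 0.149, adjusted 0.952). Without control replicates 2 and 4 that r was 0.06. Pituitary markers summed to 61.0 to 603 scaled reads in Ins2 libraries and 124 to 751 in controls, and their part in the values of the 9 genes was not tested beyond these correlations.

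In choroid plexus the 9 genes fell into Nucb2, which was present in every library, and 8 genes at or near 0. Nucb2 was at 26.5 to 39.6 reads per M in 11 of 11 libraries, near its 21.3 to 33.6 in hypothalamus. The tissues were scaled separately, so no test was made of that difference in level. Nucb2 was at 985, 1010.4, 1005, 956 and 1024 scaled reads in controls and at 897, 1187, 965, 781, 1009.7 and 766 in Ins2 libraries. The controls lay within 956 to 1024 and the Ins2 libraries on both sides of them, and the fold was 0.928 (0.810 to 1.06; limma adjusted p = 0.904, exact permutation p = 0.316). In this tissue 2 of 14533 genes tested were called (0.0138%) and Nucb2 was not among them. Nor was it among the 6.21% with an unadjusted p under 0.05 or the 0.626% with groups that did not overlap. The difference between the tissues' Nucb2 log2 changes was 0.03 (exact permutation p = 0.875).

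Crh had 0 reads in 11 of 11 choroid plexus libraries, which allows up to 0.116 reads per M in the shallowest, while hypothalamus libraries held 2.67 to 10.2. Trh had 1 read in 1 library, Sim1 had 3 reads and Otp had 7 reads in 1 library each, Adcyap1 had 7 reads over 3 libraries and Bdnf had 21 reads over 5 libraries. Their hypothalamus levels were 71.9 to 104 reads per M for Trh and 65.0 to 97.4 for Otp. Avp had reads in 8 of 11 choroid plexus libraries and Oxt in 10 of 11, at up to 6 and 14 reads in all libraries but control replicate 2.

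Choroid plexus control replicate 2 stood apart. It held 671 of the 700 Avp reads, 80 of the 135 Oxt reads, and all reads of Sim1 (3) and Otp (7). Through that library alone Avp and Oxt passed the filter on low values, and without it neither was tested. With it, Avp had means of 117 ± 257 scaled reads in controls and 3.53 ± 3.04 in Ins2 libraries, and Oxt had means of 17.0 ± 29.3 and 6.58 ± 4.73, given with no test. The same library was high in myelin and astrocyte markers, with Mbp at 25151 scaled reads against 1471 to 3333 elsewhere and Gfap at 4507 against 89.6 to 453. Among the astrocyte markers, Aldh1l1 alone lay inside the range of the other libraries, at 2940 against 2431 to 3622. Of 8 neuronal markers, 3 lay above every other choroid plexus library, namely Map2 (1165 against at most 1089), Tubb3 (58.5 against at most 31.5) and Nefl (17.2 against at most 11.9). The other 5, among them Snap25 at 87.8 against 17.4 to 148, lay inside the range of the other libraries. The part of these markers in the hormone values was not tested.

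The hormone reads of that library were not in the proportions of the hypothalamus libraries. Its ratio of Avp to Oxt reads was 8.39 (exact 95% interval 6.64 to 10.7, counting error only), against 1.63 to 2.45 in hypothalamus. At the hypothalamus proportions to Avp, its 671 Avp reads would go with 274 to 411 Oxt reads and 80 were counted, with 135 to 256 Trh reads and 0 were counted, and with 153 to 230 Otp reads and 7 were counted. Adcyap1 would be at 208 to 462 reads and had 2. Of the suprachiasmatic markers, Vip had 14 reads there, or 12.05 scaled reads against 0 to 1.11 in the other choroid plexus libraries. Nms, Prok2 and Six6 had 0 there, and were at 0 in every other choroid plexus library too. Rgs16 (6.88 scaled reads against 0.942 to 12.07) and Lhx1 (0 against 0 to 6.93) lay inside the range of the others. Of the genes expressed in magnocellular neurons, Chga was at 28.4 scaled reads against at most 17.5 in the other choroid plexus libraries. Scg2 (20.7 against at most 18.9), Chgb (31.0 against 29.3), Cck (19.8 against 16.8) and Calb1 (16.4 against 13.9) also lay above them. Pdyn, Penk, Gal, Nos1, Vgf, Caprin2 and Slc17a6 lay inside the range of the others. Where the hormone reads of this library came from was not tested.

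**Figure D5:**
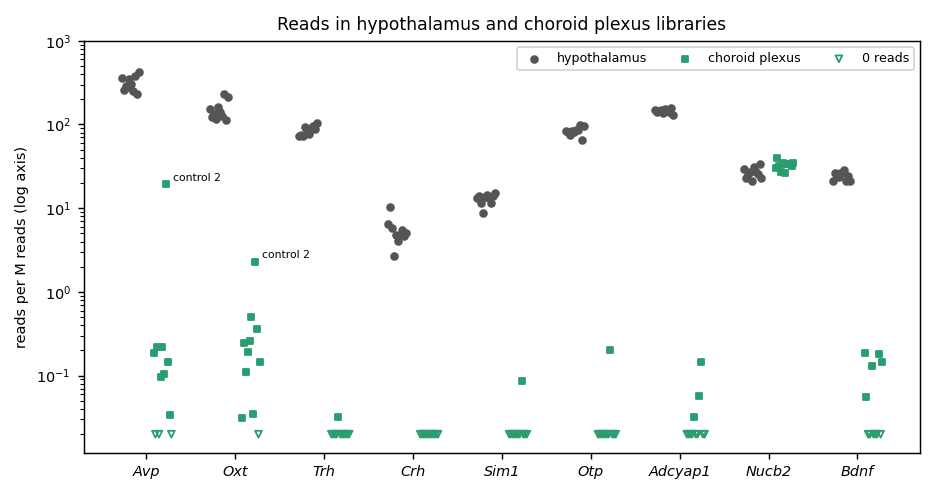
Reads per M reads (log axis) of the 9 genes in each hypothalamus library (grey circles) and each choroid plexus library (green squares), with open triangles at the bottom for libraries with 0 reads. Nucb2 overlaps between the tissues, and choroid plexus control replicate 2 holds 19.2 Avp reads and 2.29 Oxt reads per M.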

How the data were processed

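Signal values in the deposited tables are DESeq2-normalized gene counts, that is, counts over a size factor per library, and each tissue has its own table, per the labels. HISAT2, featureCounts and DESeq2 with GRCm38 (mm10) are named in the submitters' processing notes, and the libraries were directional (dUTP) and made from poly(A) RNA of a PicoPure extraction, per the labels' protocols. Versions, annotation and strand setting: not given in the sources used here. Every value of a library was a multiple of the same step, to within 0.02 for 100% of values, so that reads and depth could be recovered.

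Within each tissue limma 3.58.1 (R 4.3.3; lmFit, eBayes with trend) was fitted to log2(value + 1) of genes with a mean of at least 10, two-sided, with Benjamini-Hochberg adjustment over all genes tested and a threshold of 0.05. Exact permutation tests used all 252 (hypothalamus) or 462 (choroid plexus) splits, with a smallest possible p of 0.00794 in hypothalamus, and the test between tissues used 116424. Correlations used 100000 permutations, adjusted over 36 pairs, 144 gene and list relations, or 9 GC relations. Alternatives were edgeR 4.0.16 and DESeq2 1.42.0 on recovered reads, pseudocounts, filters, scaling, array weights, a replicate block, a thalamus covariate, GC trend removal (a quadratic in the GC content of the longest GENCODE M21 transcript, known for 99.1% of tested genes) and leaving out each library.

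The 9 genes and all lists were chosen with earlier results of these data known. The text names all 9 genes, from each list up to 4 of its most abundant members, and the 3 genes most like each gene. Exon lengths, coordinates and transcripts came from GENCODE M21, and promoters from a RefSeq table (GRCm38.p6), in which 8 of 9 genes were found; Crh was not among them. Libraries with the same replicate number were not more alike than others in their deviations, and the numbers were not used as pairs in the main tests.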

Additional observations from a re-analysis of the deposited data

Results flagged for a closer look

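In choroid plexus control replicate 2, 3 genes were far from the other 4 control libraries by Dixon's criterion. Avp was at 577 scaled reads there and between 0 and 4.35 in the others. Oxt was at 68.8 against 0 to 10.9. Otp was at 6.02, from 7 reads, against 0 in each of the others, where any value above 0 meets the criterion, so for Otp it shows no more than the reads themselves. Chance flags about 1 in 20 groups, a rate that does not apply to genes at 0 in all other libraries, and 28 gene and group combinations were looked at. Myelin markers, and astrocyte markers other than Aldh1l1, were also high in this library (Mbp at 25151 scaled reads against 1471 to 3333). Their part in these values was not tested.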

How the results depend on the processing

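None of the 9 genes passed the adjusted threshold in hypothalamus under any of 21 alternatives, and Trh, Sim1 and Nucb2 were below 0 in all 21. Crh, Sim1, Nucb2 and Bdnf got no adjusted p from DESeq2 and so could not pass there. Their unadjusted DESeq2 p ran from 0.144 to 0.742. Log2 differences ran from -0.14 to 0.16 for Avp, -0.31 to 0.06 for Oxt, -0.25 to -0.13 for Trh, -0.02 to 0.46 for Crh, -0.15 to 0.05 for Otp and -0.05 to 0.09 for Bdnf. Over 15 alternatives the r of Avp and Oxt ran from 0.87 to 0.94 and passed in each; that of Adcyap1 and Nucb2 ran from 0.80 to 0.96 and was lost with the GC trend removed, where 1 pair passed in place of 2. Genes called in hypothalamus, 0 in the main test, numbered 54 with the replicate block, 1 with the thalamus covariate (added after the data were seen), 41 with DESeq2 and 0 to 18 when 1 library was left out (18 without control replicate 6). In choroid plexus, where 2 were called, they numbered 1 with a mean of at least 50, 6 with array weights, 34 with DESeq2 and 1 to 4 when 1 library was left out (4 without Ins2 replicate 5). The cause was not tested. Same-numbered hypothalamus libraries had correlations of -0.07 to 0.009, within the -0.11 to 0.10 of libraries with different numbers. Whether same-numbered libraries shared a batch was not tested. In hypothalamus, control replicate 6 and Ins2 replicate 5 have no partner by replicate number, so the block there compares replicates 1 to 4 only. The codes in the sample titles number control replicate 6 with Ins2 replicate 4 instead, and leave control replicate 4 without a partner. Which numbering marks partners, if either does, is not given in the labels. The replicate block called 2 genes in choroid plexus, and none of the 9 genes in either tissue. Depth limits the 8 genes near 0 in choroid plexus.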
